A study of Homo sapiens with 12 samples.

Results

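Described here are 9 genes of fatty acid signaling and use: angiopoietin-like 4 (ANGPTL4), 5 other known target genes of the peroxisome proliferator-activated receptors (PPARs), namely PLIN2, PDK4, CPT1A, SLC25A20, and ACADVL, and the receptor genes PPARA, PPARD, and PPARG. They were taken by symbol from a table of 60649 genes, and all 9 passed the filter on low counts that left 21114 genes for testing. The set was put together with the SK-LMS-1 response to MK-0752 known, in which ANGPTL4 had been picked out by its change. The values of that comparison are therefore a description with no test, and the genes were tested in the other comparisons. Of these, the comparison of the DMSO sets and that of the lines after DMSO reuse the control libraries of the choice, so their p-values are not independent of it.

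RNA was sequenced in 12 libraries made from a pair of established uterine leiomyosarcoma (uLMS) cell lines, SK-UT-1B from the uterus and SK-LMS-1 from a vulvar metastasis. Both are labelled wild type, both were grown in EMEM with fetal bovine serum, and all cells were exposed for 72 h. In SK-UT-1B, DMSO is represented by libraries 4-1 and 4-2, and the combination of gemcitabine and docetaxel with MK-0752 by libraries 3-1 and 3-3. In SK-LMS-1, DMSO is represented by libraries 2-1 and 2-3, called DMSO set 2, and by 4-1 and 4-2, called DMSO set 4. Treated SK-LMS-1 cells gave libraries 2-2 and 2-3 for MK-0752 alone and 4-1 and 4-2 for the combination. MK-0752 blocks gamma secretase, the enzyme that frees the active part of Notch receptors. Gemcitabine stands in for a nucleoside and halts DNA replication, while docetaxel stabilizes microtubules. Within the combination MK-0752 was used at a lower concentration than as a single agent, so the 2 treatments of SK-LMS-1 differ in dose as well as in agents. The concentrations within the combination were also set for each line separately and were lower in SK-UT-1B, so after the combination line, dose, and first number cannot be told apart. One line stands for each tumor site, and the meaning of the first number of a library is not given in the sources used here. MK-0752 was compared with DMSO set 2 and the SK-LMS-1 combination with DMSO set 4, which share that number, whereas in SK-UT-1B the first number and the treatment cannot be told apart. The labels do not say that libraries of a group came from separate cultures, so p-values measure only the spread between these libraries.

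Total counts lay between 25250057 and 40709885 per library. Where 5 to 500 counts were expected of a gene, judged by its line's other libraries, 17.4% to 34.7% of genes had 0 counts in a given library, so low counts are less precise than their size implies. Of 12 smooth muscle markers, the summed level was 1061 to 1372 CPM (read counts scaled to library size) in SK-LMS-1 and 89.0 to 127 CPM in SK-UT-1B. MYH11 and MYOCD were at 3 counts or fewer in every DMSO library of both lines. So were DES in those of SK-LMS-1, and ACTG2 and SYNPO2 in those of SK-UT-1B. Of 9 adipocyte markers, ADIPOQ, LEP, and AQP7 were at 3 counts or fewer in all 12 libraries. Others were present, and in SK-LMS-1 the group means were 10.6 to 15.3 CPM for FABP4 and 1.97 to 5.73 CPM for PLIN1. LIPE had group means of 2.97 to 11.8 CPM over both lines, and CFD of 3.67 and 5.97 CPM in SK-UT-1B.

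PPARs are nuclear receptors that bind fatty acids and their derivatives, pair with a retinoid X receptor, and bind DNA at direct repeats of AGGTCA. PPARα is best known for fatty acid oxidation in the liver, PPARδ is present in most tissues, and PPARγ drives the formation of adipocytes. Their target genes store fatty acids, carry them into mitochondria, break them down, and hold back the use of glucose, and ANGPTL4 is also known to respond to hypoxia and glucocorticoids.

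Positions are those of GENCODE release 44 on GRCh38. The receptor genes lie at chr22:46150521-46243755 (PPARA, ENSG00000186951.16), chr6:35342558-35428191 (PPARD, ENSG00000112033.14), and chr3:12287368-12434356 (PPARG, ENSG00000132170.24), all on the plus strand. ANGPTL4 (ENSG00000167772.12), at chr19:8363289-8374370 on the plus strand, encodes a secreted inhibitor of lipoprotein lipase. PLIN2 (ENSG00000147872.10), at chr9:19108375-19149290 on the minus strand, encodes a coat protein of lipid droplets. PDK4 (ENSG00000004799.8), at chr7:95583499-95596516 on the minus strand, encodes a kinase that switches off pyruvate dehydrogenase. CPT1A (ENSG00000110090.13, chr11:68754620-68844410, minus strand) encodes the enzyme that loads long-chain fatty acids onto carnitine, and SLC25A20 (ENSG00000178537.10, chr3:48856926-48898904, minus strand) the carrier that takes them across the inner mitochondrial membrane. ACADVL (ENSG00000072778.20), at chr17:7217125-7225266 on the plus strand, encodes the dehydrogenase that opens the oxidation of long-chain fatty acids inside mitochondria. Exons of ACADVL and DLG4 overlap on opposite strands, and the strand setting of the counts is not given in the sources used here, so reads of the pair may not have been kept apart. DLG4 had 29.2 to 43.8 CPM over the 12 libraries.

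The element that PPARs bind was searched as AGGTCA, any base N, and AGGTCA again, on both strands within 5 kb of the start of the canonical transcript of 20033 protein-coding genes, with up to 2 mismatches in the 13 letters. At 2 mismatches or fewer, 63.3% of all genes held a site, as did 6 of the 9 genes described here. At 1 mismatch or fewer, 9.51% of all genes did, and of the 9 only PDK4. No site was found around ANGPTL4, PPARD, or PPARG, which says only that these letters are not in that window. The sites nearest the start of each target gene that has one are shown in capitals, read 5′ to 3′ on the strand of the gene, to show how far they depart from the repeat. On this strand a site resembles either AGGTCA or its reverse complement TGACCT on each side of the spacer base.
PDK4, upstream, chr7:95601229-95601241, minus strand: aagtcagaTGACCTATGACTTcctccaag
PLIN2, upstream of the canonical start, chr9:19129807-19129819, minus strand: ctgatgcaAAGTAAGAGGTCAttagagca
CPT1A, intron 1, chr11:68840732-68840744, minus strand: gtcaggagAGGCCATGGGTCAgcgtcttt
SLC25A20, intron 1, chr3:48897300-48897312, minus strand: cctccataTCACCTTTGTCCTtgatgtca
ACADVL, intron 2, chr17:7220355-7220367, plus strand: gcgaaactAGGGGAAAGGTCAccgcttcg

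Counted from the start, the PDK4 site begins at base −4725 and the PLIN2 site at base −2327. The sites of CPT1A, SLC25A20, and ACADVL begin 1172, 1570, and 417 bases after it.

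RefSeq promoters of GRCh38.p14, from 250 bases before to 50 bases after each start, were given for all 9 genes, in 16 windows. At least 1 AGGTCA on either strand occurred in 13.83% of all 35116 windows and in 3 of these 16, all of them alternative starts of PPARG. The window from chr3:12287118 holds 2, and those from chr3:12288810 and chr3:12288820 overlap and hold the same AGGTCA. The letters TATAAA on the strand of the gene occurred in 6.8% of all windows and, among the 9 genes, only in ANGPTL4, where they begin 29 bases before the start and are shown in capitals below. The 250 bases before the start are printed for ANGPTL4 and PDK4, chosen for the size of the former's change and the spread of the latter among controls.
ANGPTL4, chr19:8363905-8364154, plus strand: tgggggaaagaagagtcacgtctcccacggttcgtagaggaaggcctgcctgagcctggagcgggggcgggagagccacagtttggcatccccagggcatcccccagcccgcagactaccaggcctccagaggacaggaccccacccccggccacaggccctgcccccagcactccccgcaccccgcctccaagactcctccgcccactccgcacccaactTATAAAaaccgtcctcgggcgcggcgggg
PDK4, chr7:95596517-95596766, minus strand: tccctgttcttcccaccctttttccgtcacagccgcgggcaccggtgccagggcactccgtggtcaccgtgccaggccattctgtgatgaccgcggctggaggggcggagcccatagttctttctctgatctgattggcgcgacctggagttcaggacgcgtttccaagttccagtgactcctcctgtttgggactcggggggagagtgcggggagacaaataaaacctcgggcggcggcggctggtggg

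Levels of different genes were set side by side as CPM per kb of the canonical transcript. In the 4 SK-LMS-1 DMSO libraries PPARD was the highest of the 9 genes, with 40.5 ± 4.42 CPM per kb (SD, n = 4). ACADVL followed with 27.4 ± 4.79, and no library of one overlapped with the other. PLIN2 (12.6 ± 2.74), PPARG (11.5 ± 3.01), and CPT1A (11.4 ± 0.720) were not separated by their ranges, and PPARA followed at 7.25 ± 1.09, with a range that overlapped with that of PPARG. ANGPTL4 (1.06 ± 0.552), PDK4 (0.730 ± 0.486), and SLC25A20 (0.723 ± 0.334) were the lowest, with overlapping ranges. The order depends on the length used. Over the union of all annotated exons PPARG was at 1.70 CPM per kb, and PLIN2 (4.77) was below CPT1A (9.05) and PPARA (5.55).

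In the 2 DMSO libraries of SK-UT-1B the order was led by PLIN2, with 29.6 ± 4.20 CPM per kb (SD, n = 2). ACADVL (10.9 ± 1.73), PPARD (10.2 ± 2.22), and CPT1A (8.75 ± 0.0250) came next, each overlapping with its neighbor in the order. PPARA (3.12 ± 1.29), ANGPTL4 (2.29 ± 1.47), and SLC25A20 (2.13 ± 1.93) came after these, with overlapping ranges. PDK4 and PPARG, at 0.166 ± 0.234 and 0.150 ± 0.211, each had 0 counts in library 4-1. Over the union of all annotated exons ACADVL (4.93 CPM per kb) was below PPARD (8.52) and CPT1A (6.98). The receptor with the highest per-length level was thus PPARD in both lines, while PPARG was close to the bottom in SK-UT-1B.

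**Figure D1:**
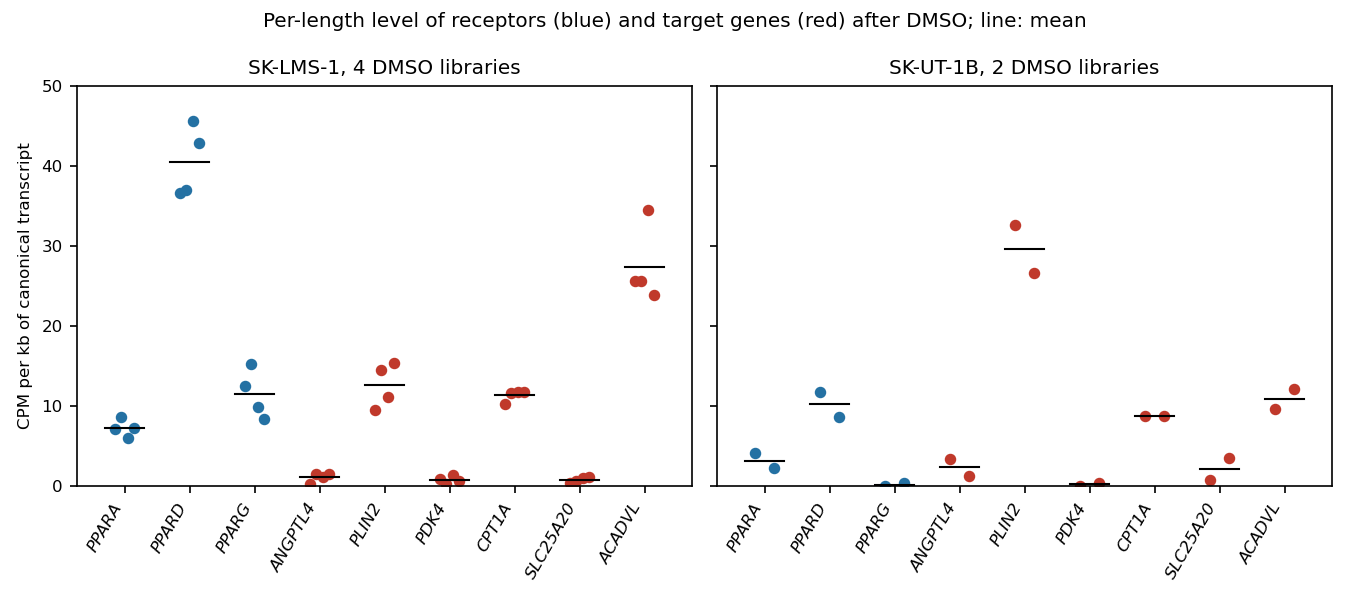
Level of each gene per kb of its canonical transcript after DMSO, in CPM per kb, with 1 point per library and a line at the mean; receptor genes are blue and target genes red. PPARD (40.5) leads in SK-LMS-1 and PLIN2 (29.6) in SK-UT-1B, where both PPARG points lie near 0.

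The effect of MK-0752 alone was measured in SK-LMS-1. After MK-0752, all 6 target genes were higher in both libraries than in either library of DMSO set 2, and none of the 3 receptor genes was. The changes of ANGPTL4, SLC25A20, and PDK4 were larger than those of PLIN2, CPT1A, and ACADVL, and among the former the order depended on the control library, with PDK4 ahead of ANGPTL4 without DMSO 2-1. Over all genes, 16.9% were higher without overlap of the libraries, and 0.0568% were called higher (0.251% in either direction) by edgeR's quasi-likelihood test, where a call needs a log2 fold change (log2FC) of 1 or more in either direction with an adjusted p under 0.05. These shares are background only, since the genes were chosen with this comparison known. In bulk RNA, fewer cells with a transcript and less of it in each cell cannot be told apart.

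ANGPTL4 had 17 and 73 counts in libraries 2-1 and 2-3 of DMSO set 2, or 0.487 and 2.64 CPM. After MK-0752 it had 753 and 1272 counts, or 21.1 and 34.6 CPM. The mean was 1.57 ± 1.53 CPM in the controls and 27.8 ± 9.51 CPM after MK-0752 (SD, n = 2), a ratio of 17.8 and a log2FC of 4.16 (SE 0.83). The lower treated library exceeded the highest of all 4 DMSO libraries, 2.70 CPM, and the size of the change depended on the control library, with a log2FC of 3.40 without DMSO 2-1 and 5.81 without DMSO 2-3. Per kb of canonical transcript its level after MK-0752 was 14.9 ± 5.08 CPM, and its range overlapped with those of CPT1A and PPARG.

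Among the 9 genes, the 2 of the carnitine shuttle, SLC25A20 and CPT1A, differed in the size of their change. SLC25A20 had 0.630 and 0.942 CPM in DMSO set 2 and 9.48 and 4.29 CPM after MK-0752, a log2FC of 3.13 (SE 1.01) that rests on 22 and 26 counts in the controls. Against DMSO set 4, where it had 1.70 and 1.87 CPM, the log2FC was 1.95. CPT1A is counted far more deeply, with 1878 and 1682 counts in the controls and 3429 and 3873 in the treated libraries. Its level was 53.8 and 60.9 CPM in the controls and 96.2 and 105 CPM in the treated libraries, a log2FC of 0.81 (SE 0.19), and its log2FC stayed between 0.71 and 0.89 over the 11 alternatives run.

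Relative to its mean, PDK4 varied most of the 9 genes over the 4 SK-LMS-1 DMSO libraries. It had 3.09 and 0.580 CPM in DMSO set 2, 4.75 and 2.10 CPM in DMSO set 4, and 9.23 and 12.6 CPM after MK-0752. Both treated libraries lay above all 4 DMSO libraries, but the log2FC of 2.56 (SE 1.67) became 4.22 without DMSO 2-1, 1.80 without DMSO 2-3, and 1.67 against DMSO set 4.

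PLIN2 had 18.1 and 27.4 CPM in DMSO set 2 and 49.5 and 55.8 CPM after MK-0752, with a log2FC of 1.21 (SE 0.27). ACADVL had 55.9 CPM in both libraries of DMSO set 2 and 70.4 and 114 CPM after MK-0752, with a log2FC of 0.72 (SE 0.25) that was 0.33 without MK-0752 library 2-3 and 1.03 without library 2-2. Here the groups overlapped once DMSO set 4 was included, as DMSO 4-1 had 75.3 CPM, above the lower treated library. DLG4, which shares exon sequence with ACADVL on the other strand, had a mean of 38.7 CPM in DMSO set 2 and 43.0 CPM after MK-0752, and its part in the ACADVL value was not tested.

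The receptor genes showed no such pattern. PPARA had 72.0 and 87.6 CPM in DMSO set 2 and 75.8 and 78.5 CPM after MK-0752. PPARG had 22.2 and 27.0 CPM in the controls and 15.7 and 24.9 CPM after MK-0752, with overlapping groups. PPARD was lower in both treated libraries, at 95.2 and 112 CPM against 137 and 138 CPM, a log2FC of −0.41 (SE 0.18), where 17.5% of all genes were lower without overlap. Against DMSO set 4 the log2FC of every target was smaller, with 3.53 for ANGPTL4, 1.07 for PLIN2, 0.71 for CPT1A, and 0.54 for ACADVL. The log2FC of PPARA (−0.05) and PPARG (−0.28) turned to 0.20 and 0.33 against DMSO set 4, and that of PPARD was −0.67.

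**Figure D2:**
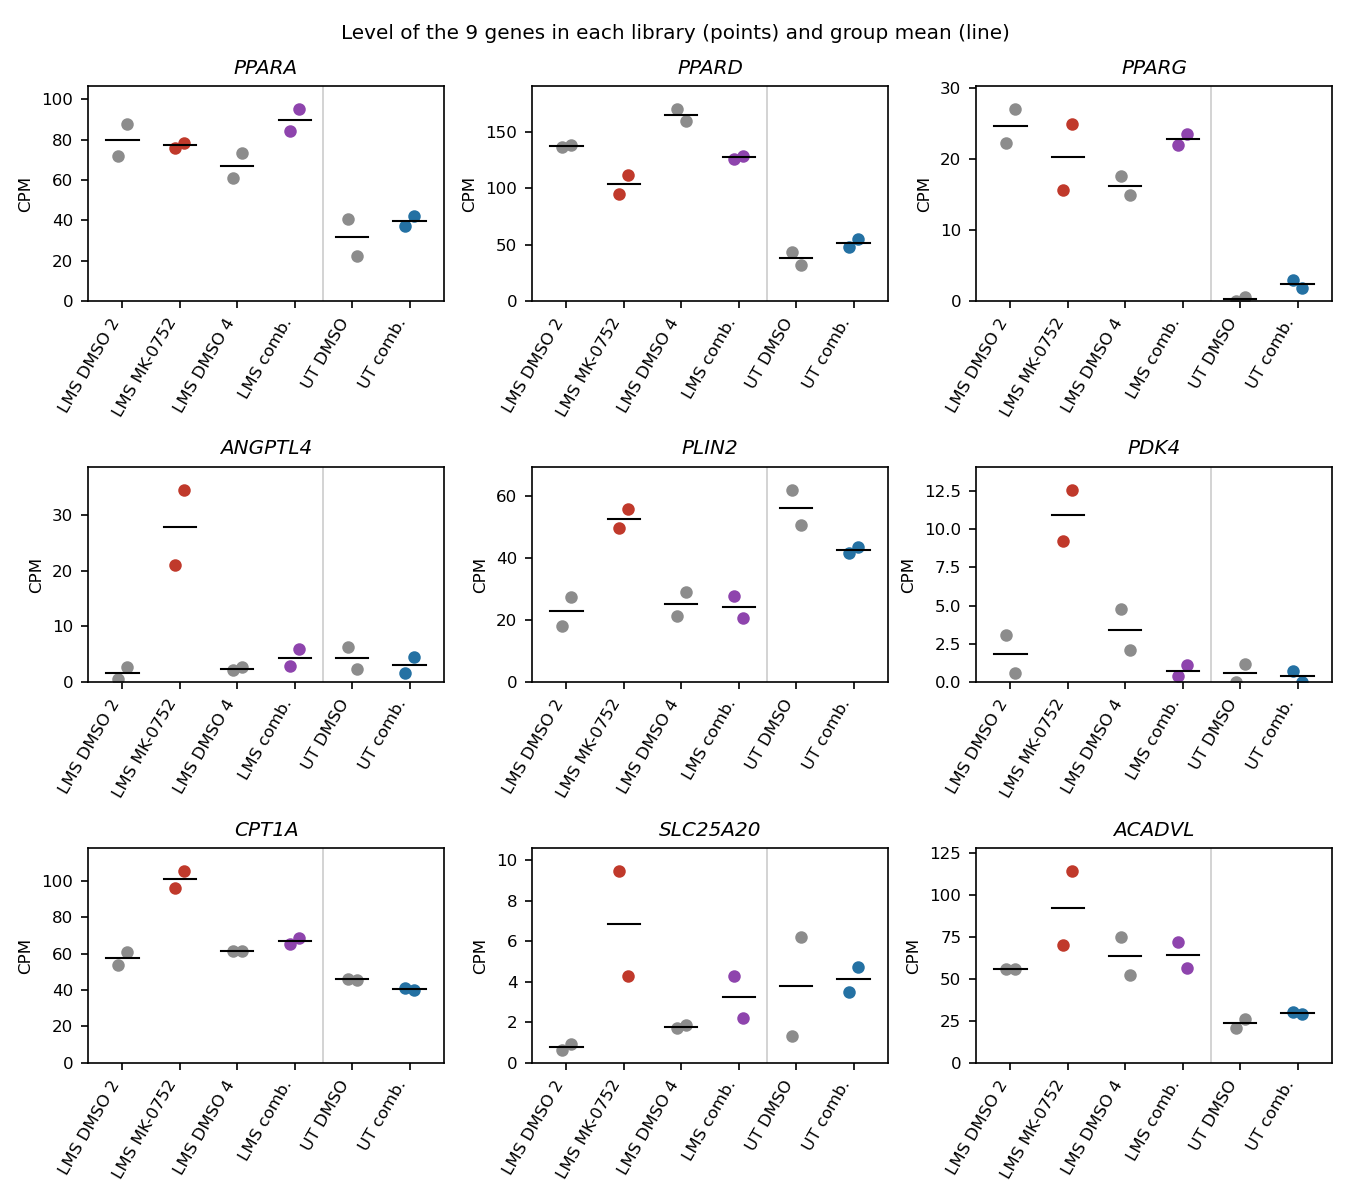
Level of the 9 genes in CPM (linear axes from 0, scaled per gene) in each of the 12 libraries, with a line at the mean of each group of 2; LMS is SK-LMS-1, with DMSO sets 2 and 4, UT is SK-UT-1B, and comb. is the combination. The red points of MK-0752 lie above DMSO set 2 for all 6 target genes, whereas PPARG is near 0 in the 2 DMSO libraries of SK-UT-1B.

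Other genes of the pathway were examined as lists, whose medians are set beside that of all genes tested, 0 for this comparison, and beside the median log2FC of 1.89 of the 6 target genes. Of 39 further genes of fatty acid oxidation, 37 were tested, of which 26 had a log2FC above 0 and 10 below, with a median of 0.17. None was called by edgeR or by DESeq2, and by edgeR 4 were higher and 2 lower at an unadjusted p under 0.05, which 1354 of all 21114 genes reached in this comparison. Of 33 tested other PPAR target genes 16 lay above and 16 below 0, with a median of 0.00. By edgeR 6 of them were higher and 2 lower at an unadjusted p under 0.05. Without overlap of the libraries 11 were higher and 8 lower, beside 16.9% and 17.5% of all genes. Of the 33, 1 was called, where 0.0568% of all genes were called higher. This was TXNIP, which encodes a brake on glucose uptake. Its mean level was 9.83 ± 1.82 CPM in DMSO set 2 and 678 ± 56.9 CPM after MK-0752, a log2FC of 6.10 (SE 0.34). TXNIP is also controlled by glucose through other factors, and as it had been singled out in earlier results of these data, its values are a description.

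Among 15 tested partners and coregulators of PPARs, among them the retinoid X receptors and the PGC-1 coactivators, none was called by edgeR or DESeq2, 1 was higher at an unadjusted p under 0.05, and the median was 0.03. The same held for calls among 15 further lipid droplet genes (median 0.09, 2 higher and 1 lower at an unadjusted p under 0.05). It also held for 13 genes of pyruvate dehydrogenase, its kinases and phosphatases, and the pyruvate carrier, MPC1 and MPC2. Their median was 0.00, with 0 at an unadjusted p under 0.05. Only 3 of 10 other genes of the angiopoietin and angiopoietin-like family were expressed enough to be tested, and by edgeR none of them was called or reached an unadjusted p under 0.05, nor did DESeq2 call one.

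Of 21 hypoxia-inducible genes, 9 lay above and 11 below 0, and edgeR and DESeq2 called none (1 higher and 3 lower at an unadjusted p under 0.05 in edgeR). Of 11 tested glucocorticoid-induced genes, 5 lay above and 6 below 0, and 2 fell, where 0.194% of all genes were called lower: ERRFI1, an inhibitor of the EGF receptor, from 254 ± 39.7 to 100.5 ± 8.23 CPM (log2FC −1.34, SE 0.26, edgeR adjusted p = 0.0491), and SGK1, a serine/threonine kinase, from 75.5 ± 8.94 to 31.3 ± 3.90 CPM (log2FC −1.27, SE 0.27, adjusted p = 0.0439). Over the alternatives, the adjusted p lay between 1.74e-09 and 0.0657 for ERRFI1 and between 5.63e-04 and 0.150 for SGK1. Against DMSO set 4 both missed the threshold, with 0.0563 and 0.0660, as they did with a filter at a mean of 50 counts, with 0.0657 and 0.0842, and SGK1 also did without DMSO 2-1 (0.128) and without MK-0752 library 2-3 (0.150).

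The summed level of the smooth muscle markers was higher after the treatment, 1130 to 1141 CPM in DMSO set 2 against 1335 to 1372 CPM after MK-0752, and MYLK alone went from a mean of 521 to 769 CPM. DES and MYH11 were at 3 counts or fewer in both groups. Of the 11 tested, 4 lay above and 6 below 0 (median −0.03), and edgeR and DESeq2 called none, with none at an unadjusted p under 0.05. Of 5 tested adipocyte markers 4 lay above 0 (median 0.54) and likewise none was called or reached an unadjusted p under 0.05 in edgeR, nor did DESeq2 call one. Their summed level was 18.3 to 21.8 CPM in DMSO set 2 and 19.4 to 22.4 CPM after MK-0752. The part of either marker list in the levels of the target genes was not tested.

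**Figure D3:**
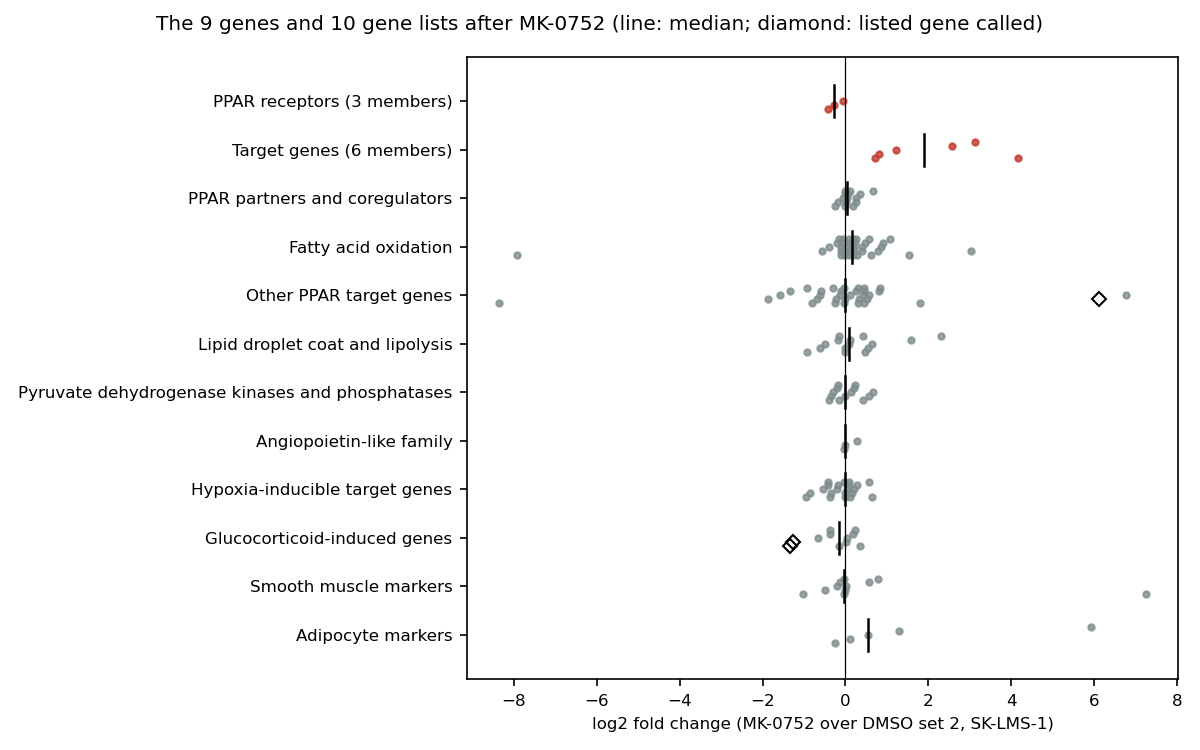
log2FC of each tested gene between MK-0752 and DMSO set 2 in SK-LMS-1, by list, with a line at each median and an open diamond for a listed gene that was called; the 9 genes described here are red and carry no test. The 6 target genes lie between 0.72 and 4.16 with a median of 1.89, and the medians of the lists lie between −0.16 and 0.54. Grey points away from their list include MYOCD and GPD1, with a mean of 0 CPM in DMSO set 2. They also include the PPAR target gene MGLL (−1.33), with 6165 to 7776 counts in DMSO set 2 and 2968 to 3466 after MK-0752.

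The combination was measured in SK-LMS-1 against DMSO set 4. None of the 9 genes was called (0 of 9, where edgeR called 0.0237% of all genes, 0.0142% higher and 0.00947% lower), and none reached an unadjusted p under 0.05 in edgeR. DESeq2 called none either, although there PPARD had an unadjusted p of 0.0419 (adjusted p = 0.816). ANGPTL4 had 2.11 and 2.70 CPM in DMSO set 4 and 2.85 and 5.87 CPM after the combination. Its log2FC was 0.85 (SE 0.74, edgeR adjusted p = 0.952), between 0.26 and 1.29 over the alternatives. Beside this stand 21.1 and 34.6 CPM after MK-0752 alone, at another dose and without the other agents, so that no comparison of the treatments was made.

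SLC25A20 had 1.70 and 1.87 CPM in DMSO set 4 and 4.30 and 2.22 CPM after the combination (log2FC 0.87, SE 0.93, and 0.32 without the combination library 4-1), and CPT1A had 61.5 and 61.6 CPM against 65.2 and 68.6 CPM (log2FC 0.12, SE 0.18). PDK4 pointed the other way, with 4.75 and 2.10 CPM in DMSO set 4 and 0.361 and 1.11 CPM after the combination. Its log2FC was −2.22 (SE 1.67, edgeR adjusted p = 0.909), on 12 and 27 counts after treatment, and it was −1.52 without DMSO 4-1 and −3.21 without the combination library 4-2. PLIN2 (21.1 and 29.1 CPM against 27.6 and 20.6 CPM) and ACADVL (75.3 and 52.1 CPM against 72.1 and 56.3 CPM) overlapped between the groups.

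The receptors did not overlap between these groups, PPARD being lower at 126 and 129 CPM against 170.3 and 160.02 CPM (log2FC −0.37, SE 0.18, adjusted p = 0.907). PPARA was at 84.0 and 95.1 CPM against 60.7 and 73.1 CPM, and PPARG at 22.0 and 23.6 CPM against 17.5 and 14.9 CPM, with log2FCs of 0.42 (SE 0.24) and 0.49 (SE 0.60). Of all genes, 21% were higher and 11.4% lower without overlap, so that 5 of 9 higher and 2 of 9 lower stand against these shares, and the lowest adjusted p of the 9 was 0.907.

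Between the 2 DMSO sets of SK-LMS-1, which carry the same treatment label, none of the 9 genes was called by edgeR or DESeq2 and none reached an unadjusted p under 0.05 in edgeR. Over all genes edgeR called 0 (0%), with 1197 at an unadjusted p under 0.05, whereas DESeq2 called 30. Without overlap between the sets were PPARD (137 and 138 CPM against 170.3 and 160.02 CPM), PPARG (22.2 and 27.0 CPM against 17.5 and 14.9 CPM), SLC25A20, and CPT1A. Without overlap, 12% of all genes were higher and 17.5% lower in DMSO set 4. The mean of PPARD was 137.5 CPM in DMSO set 2 and 165 CPM in DMSO set 4, beside 103 CPM after MK-0752 and 127 CPM after the combination.

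**Figure D4:**
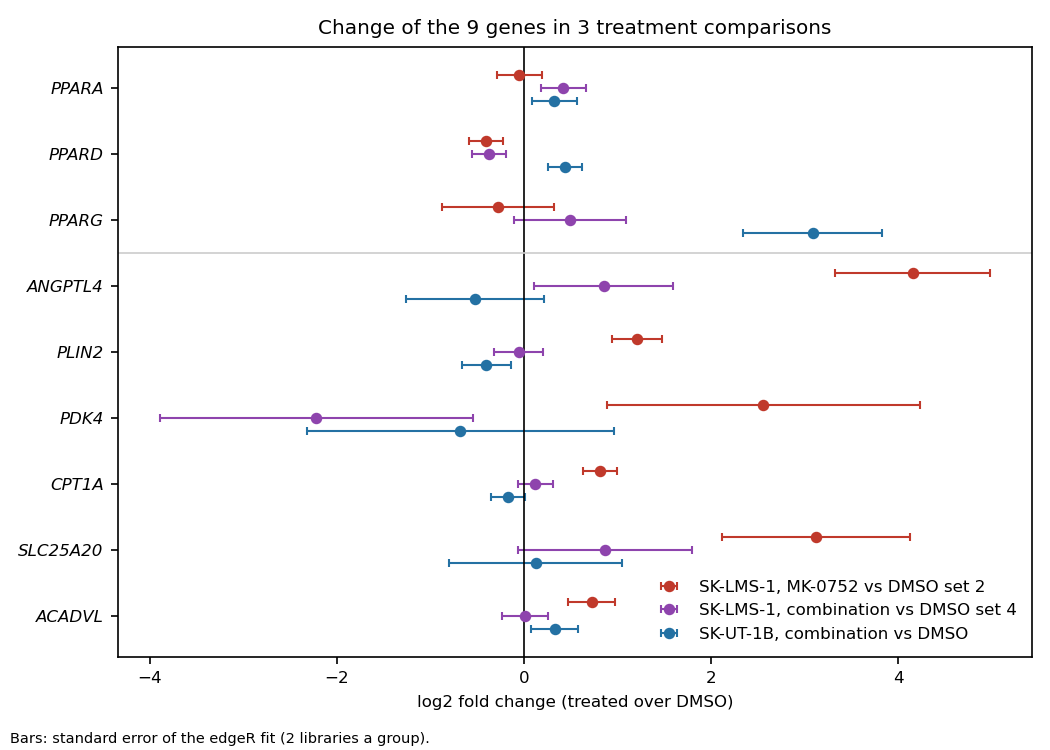
log2FC of the 9 genes (treated over DMSO) in the 3 treatment comparisons, with the standard error of the edgeR fit as bars; the line separates receptor genes from target genes. The red points of MK-0752 in SK-LMS-1, shown as a description, are above 0 for all 6 target genes, the 2 combination comparisons lie close to 0 for PLIN2, CPT1A, and ACADVL, and PPARG in SK-UT-1B stands at 3.09.

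In SK-UT-1B, none of the 9 genes was called after the combination (0 of 9, background 0.559%, of which 0.393% higher and 0.166% lower), and the lowest adjusted p was that of PPARG, which had a higher level in both treated libraries. All 3 receptor genes had a log2FC above 0, and DESeq2 called PPARG. In edgeR 2 of them, PPARG and PPARD, reached an unadjusted p under 0.05, as did 2214 of all 21114 genes in either direction. PPARG had 0 and 20 counts after DMSO and 109 and 53 after the combination, or 0 and 0.530 CPM against 2.98 and 1.88 CPM. The log2FC was 3.09 (SE 0.74, edgeR adjusted p = 0.0960), and DESeq2 gave 3.12 with an adjusted p of 0.00102. With so few counts the size is poorly fixed, from 2.17 without DMSO 4-1 to 9.28 without DMSO 4-2, and edgeR called it without the filter on low counts, while with only the 4 SK-UT-1B libraries in the model its adjusted p was 0.722. Fits without 1 of the 4 libraries called it as well, but there the lone library of an arm is assumed to vary like the other groups and more genes pass the filter, so that these calls do not bear on its stability. The level after treatment stayed below that of the 8 SK-LMS-1 libraries, which had 14.9 to 27.0 CPM.

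PPARD was also higher in both treated libraries, with 43.8 and 32.1 CPM after DMSO and 47.7 and 55.0 CPM after the combination (log2FC 0.44, SE 0.18, edgeR adjusted p = 0.374). PPARA had 40.8 and 22.3 CPM against 37.0 and 42.0 CPM, which overlap. Among the targets, PLIN2 was lower, with 61.8 and 50.6 CPM after DMSO and 41.6 and 43.3 CPM after the combination (log2FC −0.40, SE 0.26, adjusted p = 0.672). CPT1A was lower by a small amount, 45.9 and 45.8 CPM against 41.3 and 40.2 CPM (log2FC −0.17, SE 0.19), and ACADVL was higher, 21.1 and 26.4 CPM against 30.5 and 29.1 CPM. Without overlap, 16.7% of all genes were higher and 15.4% lower.

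The remaining targets overlapped between the groups. ANGPTL4 had 6.23 and 2.33 CPM after DMSO and 1.53 and 4.44 CPM after the combination. SLC25A20 varied more between the DMSO libraries, 1.35 and 6.21 CPM, than after the combination, 3.50 and 4.76 CPM. PDK4 had 0 and 45 counts after DMSO and 27 and 0 after the combination, so that each group holds a library at 0.

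Of 33 tested other PPAR target genes 1 fell by edgeR, where 0.166% of all genes were called lower, and of 21 hypoxia-inducible genes 1 rose, where 0.393% were called higher. MGLL, which encodes the lipase that releases the last fatty acid of a triglyceride, went from 3.94 ± 2.41 to 0.295 ± 0.317 CPM (SD, n = 2; log2FC −3.59, SE 0.60), given as a description because it had been singled out in earlier results of these data, and NDRG1, a hypoxia-inducible gene, from 9.76 ± 1.61 to 33.7 ± 2.63 CPM (log2FC 1.78, SE 0.19, edgeR adjusted p = 5.52e-05). The log2FC of MGLL was −2.82 without DMSO 4-1 and −5.71 without the combination library 3-1. With only the 4 SK-UT-1B libraries in the model neither was called, and the adjusted p of NDRG1 was 0.555. Of the 37 fatty acid oxidation genes 25 lay below 0 (median −0.13), none was called by edgeR or DESeq2, and 2 were higher and 4 lower at an unadjusted p under 0.05. Of the 33 other PPAR target genes 5 were higher and 1 lower at an unadjusted p under 0.05 in edgeR. DESeq2 called 1 of these higher and 1 lower, where it called 235 higher and 134 lower of all 21114 genes. Of 21 hypoxia-inducible genes 15 lay above 0, with a median of 0.37 beside 0 over all genes, and 7 were higher and 0 lower at an unadjusted p under 0.05, which 2214 of all 21114 genes reached in either direction. DESeq2 called 3 of the 21 higher and 0 lower. Without overlap of the libraries 10 were higher and 2 lower, beside 16.7% and 15.4% of all genes.

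The difference between the combination effects of the lines was tested directly, although the doses differed between the lines. edgeR called none of the 9 genes (0 of 9, background 0.232%, of which 0.147% higher and 0.0853% lower), and DESeq2 none either. PPARD and PPARG reached an unadjusted p under 0.05 in edgeR, as did 1619 of all 21114 genes in either direction. PPARD had a log2FC of −0.37 in SK-LMS-1 and 0.44 in SK-UT-1B, neither of them called, a difference of 0.81 (SE 0.26, adjusted p = 0.435). For PPARG the difference was 2.60 (SE 0.95, adjusted p = 0.550), ranging from 1.67 to 8.79 over the alternatives, and edgeR called it without the filter on low counts and in 4 of the 8 fits that left out a library. For ANGPTL4 it was −1.38 (SE 1.05, adjusted p = 0.838), between −0.53 without SK-UT-1B DMSO 4-1 and −2.33 without the SK-UT-1B combination library 3-3. NDRG1, in contrast, differed by 2.21 (SE 0.27, adjusted p = 2.65e-04).

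The lines differed in all 3 receptor genes. After DMSO, edgeR called 5 of the 9 genes (background 31.1% in either direction, 17% higher and 14.1% lower in SK-LMS-1), all 3 receptors and ACADVL being higher in SK-LMS-1 and PLIN2 lower. DESeq2 also called 5. PPARG was at 14.9 to 27.0 CPM in the 4 SK-LMS-1 libraries, with a mean of 20.4 ± 5.34 (SD, n = 4), and at 0 and 0.530 CPM in SK-UT-1B. The log2FC was 6.12 (SE 0.77, edgeR adjusted p = 1.69e-05), and as it rests on 20 counts in 1 SK-UT-1B library, it ran from 5.18 without DMSO 4-1 to 12.31 without DMSO 4-2.

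PPARD differed by a log2FC of 1.99 (SE 0.17, adjusted p = 1.18e-08), from 38.0 ± 8.30 CPM in SK-UT-1B to 151 ± 16.5 CPM in SK-LMS-1. PPARA differed by 1.21 (SE 0.22, adjusted p = 1.34e-04), with 31.6 ± 13.1 CPM in SK-UT-1B and 73.4 ± 11.0 CPM in SK-LMS-1. This value fell to 0.84, under the fold needed for a call, without SK-UT-1B DMSO 4-2. ACADVL had 23.8 ± 3.77 and 59.8 ± 10.5 CPM (log2FC 1.33, SE 0.23, adjusted p = 8.94e-05).

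PLIN2, the lipid droplet coat, had the opposite sign, with 50.6 and 61.8 CPM in SK-UT-1B and 18.1 to 29.1 CPM in SK-LMS-1 (log2FC −1.23, SE 0.22, edgeR adjusted p = 1.24e-04). CPT1A was higher in SK-LMS-1 without overlap, 53.8 to 61.6 CPM against 45.8 and 45.9 CPM, but by too little for a call (log2FC 0.37, SE 0.16, adjusted p = 0.0737). ANGPTL4 (log2FC −1.14, SE 0.62, adjusted p = 0.152), SLC25A20 (−1.67, SE 0.77, adjusted p = 0.0929), and PDK4 (2.05, SE 1.53, adjusted p = 0.310) overlapped between the lines. These last values moved with single libraries in both directions. Without SK-UT-1B DMSO 4-1 the log2FC of ANGPTL4 was −0.32, that of PDK4 1.03, and that of SLC25A20 −2.43, whereas without SK-UT-1B DMSO 4-2 they were −1.68, 9.32, and −0.19, and ANGPTL4 was at −2.01 without SK-LMS-1 DMSO 2-3.

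After the combination, given at line-specific doses, 4 of the 9 genes were called by edgeR and by DESeq2 (background 25.4%, of which 15.6% higher and 9.88% lower), all higher in SK-LMS-1: PPARG, PPARD, PPARA, and ACADVL. PPARG had 22.8 ± 1.11 CPM in SK-LMS-1 and 2.43 ± 0.776 CPM in SK-UT-1B (log2FC 3.22, SE 0.66, adjusted p = 0.00157). PPARD (1.31, SE 0.18, adjusted p = 1.04e-05), PPARA (1.18, SE 0.24, adjusted p = 6.37e-04), and ACADVL (1.11, SE 0.25, adjusted p = 0.00171) kept their sign, and ACADVL fell to 0.90 without the SK-LMS-1 combination library 4-1. CPT1A (0.72, SE 0.19, adjusted p = 0.00476) and PLIN2 (−0.81, SE 0.27, adjusted p = 0.0224) had adjusted p under 0.05 without the fold needed for a call. Neither held its place in every fit, as PLIN2 had a log2FC of −1.06 without the same library and −0.63 (adjusted p = 0.275) without the SK-LMS-1 combination library 4-2, and the adjusted p of CPT1A was 0.0570 and 0.0957 without these libraries.

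**Figure D5:**
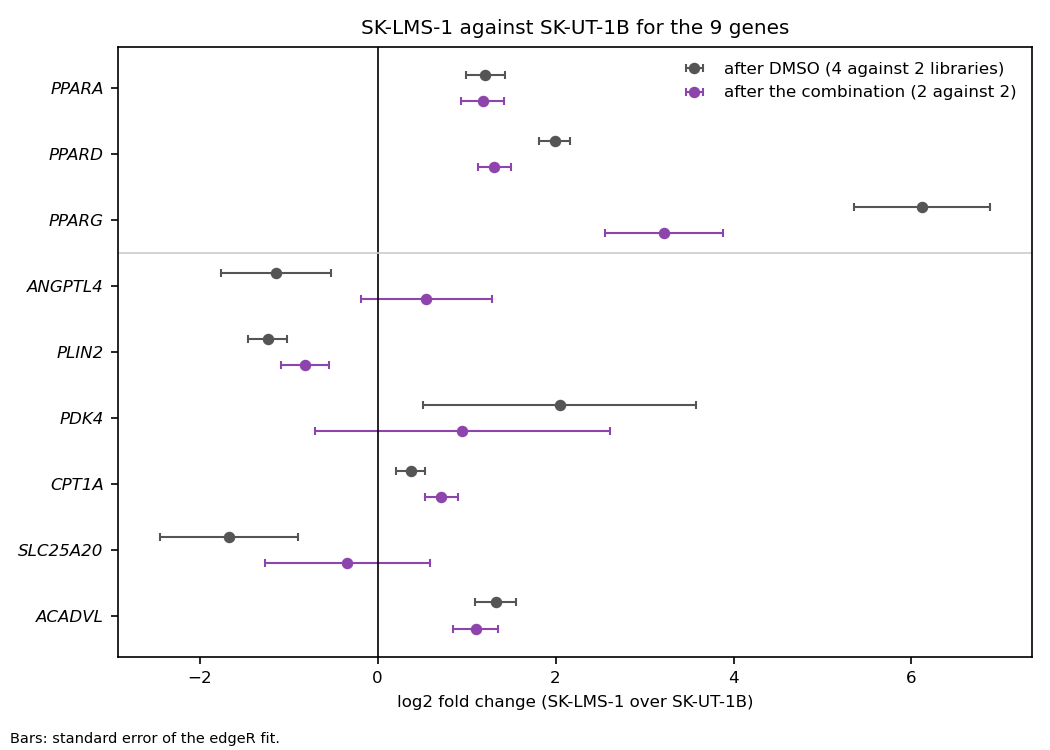
log2FC of SK-LMS-1 over SK-UT-1B for the 9 genes after DMSO (4 against 2 libraries) and after the combination (2 against 2), with the standard error of the edgeR fit as bars. The 3 receptor genes are above 1 in both comparisons, with PPARG at 6.12 and 3.22, and PLIN2 is below 0 in both.

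Partners and coregulators of PPARs were compared between the lines as a list. PPARGC1A, which encodes the PPAR coactivator PGC-1α, had 3543 and 4468 counts after DMSO in SK-UT-1B, or 121 ± 2.93 CPM (SD, n = 2). In SK-LMS-1 it had 15 counts in DMSO 4-1 and 0 in the other DMSO libraries (edgeR adjusted p = 0.00379, at most 0.00805 over the alternatives). Its relative PPARGC1B had 23.1 ± 0.764 CPM in SK-UT-1B and 1.82 ± 1.17 CPM in SK-LMS-1 (n = 4; log2FC −3.69, SE 0.48, adjusted p = 2.89e-06). The corepressor gene NRIP1 was higher in SK-LMS-1, with 95.7 ± 17.7 CPM against 25.9 ± 3.06 CPM (log2FC 1.87, SE 0.22, adjusted p = 7.34e-07). In all, edgeR called 7 of 15 tested partners and coregulators after DMSO, 3 of them higher in SK-LMS-1, beside 31.1% of all genes, and 9 after the combination, 3 of them higher, beside 25.4%. There PPARGC1A had 126 ± 16.9 CPM in SK-UT-1B and 51 and 0 counts in SK-LMS-1 (edgeR adjusted p = 0.0221, but 0.0659 by DESeq2).

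After DMSO, 20 of 33 other PPAR target genes were called, 11 of them higher in SK-LMS-1, with a median log2FC of 0.27, beside 31.1% of all genes called and 17% called higher. ACSL5, an acyl-CoA synthetase, FABP4, a fatty acid binding protein of adipocytes, and CD36, a fatty acid transporter, were at 0 counts in each of the 4 libraries of SK-UT-1B. In the SK-LMS-1 DMSO libraries they had 81.3 ± 11.2, 14.0 ± 3.72, and 3.04 ± 1.57 CPM (SD, n = 4; edgeR adjusted p = 1.33e-13, 2.44e-08, and 6.04e-05). LPL, the lipoprotein lipase that ANGPTL4 inhibits, was the reverse, with 277 and 276 counts or 8.45 ± 1.60 CPM in SK-UT-1B after DMSO and 0 counts in the 4 SK-LMS-1 DMSO libraries (adjusted p = 6.36e-05). After MK-0752, where ANGPTL4 had its highest level, LPL had 0 counts in both SK-LMS-1 libraries. FABP5, TXNIP, and CYP1B1 were also called lower in SK-LMS-1 after DMSO. FABP5 had 2.25 ± 1.06 CPM in SK-LMS-1 and 23.9 ± 3.69 CPM in SK-UT-1B, the log2FC of TXNIP was −4.41, and CYP1B1 had 0 counts in the 4 SK-LMS-1 DMSO libraries. Of 37 fatty acid oxidation genes, edgeR called 4 higher and 7 lower (median −0.25), a share close to the 31.1% of all genes. Of 13 genes of pyruvate dehydrogenase, its regulators, and the pyruvate carrier, 1 was called higher and 8 lower (median −1.13). The carrier gene MPC2 was among those called lower, and the shares of all genes were 17% higher and 14.1% lower.

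Across libraries, the genes most like ANGPTL4 were named by Pearson's r of log2 CPM among 13522 genes with a mean of at least 50 counts, as a description with no p. Over the 8 SK-LMS-1 libraries CPT1A stood first (r = 0.97), followed by USP22, DNER, BTN3A1, and FTH1 (0.97 to 0.96). The other targets in this ranking were PLIN2 (0.89, place 84), SLC25A20 (0.82, place 230), ACADVL (0.67, place 935), and PDK4 (0.50, place 2150). Among the receptors, PPARA (0.24) and PPARG (−0.02) showed little likeness, and PPARD ran the other way (−0.70). Over all 12 libraries the first was INSIG1 (0.93), a regulator of sterol synthesis, and CPT1A was at 0.68 in place 47. The libraries fall into treatment groups, and the 2 MK-0752 libraries carry most of the range of ANGPTL4, so these values repeat in part the comparison above.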

How the data were processed

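Single-end reads of stranded, ribosome-depleted libraries were trimmed by the authors with Trim Galore 0.3.7, aligned to hg38 with STAR 2.7.9a, and cleared of ribosomal RNA, per the labels and the methods of the study. The deposited values are not normalized: they are the counts of reads that STAR assigned to each gene, and the authors ran DESeq2 1.42.0 on them. The annotation, the strand setting, and a removal of duplicates are not given in the sources used here. Of the 60649 gene identifiers, 54131 matched GENCODE release 44 exactly, and PPARA was matched without its version.

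From these counts, levels were computed as CPM on TMM library sizes and, between genes, per kb of the canonical transcript. Groups were formed from line and treatment, with the DMSO libraries of SK-LMS-1 split by first number. One model of all 6 groups of 2 was fitted with edgeR 4.0.16 in R 4.3.3 (filterByExpr, TMM, robust quasi-likelihood test, Benjamini-Hochberg adjustment over 21114 genes), after tests on simulated data. Calls needed a change of 1 or more on the log2 scale, in either direction, together with an adjusted p under 0.05. Depth was 25250057 to 40709885 counts per library. Counts of at most 3 were taken as the floor, and reads are not independent molecules.

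The genes and the 10 gene lists were chosen with earlier results of these data known. The rule for named genes takes the 9 genes, the called genes of each list to a maximum of 4 in each direction, and the 5 genes most like ANGPTL4, and not all genes that it takes between the lines are printed. Alternatives were DESeq2, DESeq2's size factors, a filter at only 1 count, a filter at a mean of 50 counts, only the libraries compared, other DMSO controls, a replicate block, and each library left out in turn. Adjusted p over alternatives are ranges across these.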

Additional observations from a re-analysis of the deposited data

Results flagged for a closer look

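In the 4 SK-LMS-1 DMSO libraries, 3 values of the 9 genes lay far from the other libraries by Dixon's ratio, which was computed on CPM and on log2 CPM. ANGPTL4 had 0.487 CPM in library 2-1 and 2.11 to 2.70 CPM in the others, far on the log2 scale. CPT1A had 53.8 CPM in the same library and 60.9 to 61.6 CPM in the others, far on both scales. ACADVL had 75.3 CPM in library 4-1 and 52.1 to 55.9 CPM in the others, far on the CPM scale. Chance marks about 1 in 20 groups on a scale. Library 2-1 is a control of the MK-0752 comparison, and 34.7% of its genes with 5 to 500 expected counts were at 0, the highest share of the 12 libraries, and the part of this in the ANGPTL4 and CPT1A values was not tested.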

How the results depend on the processing

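The count of called genes among the 9 moved by over 1.5 times in 2 comparisons, in both through PPARG. For the SK-UT-1B combination it was 0 in the reported fit, 1 by DESeq2, 1 without a filter beyond 1 count, and 1 without each library in turn. For the difference of the combination effects between the lines it was 0 in the reported fit, 1 without the filter beyond 1 count, and 0 to 1 without each library in turn. For the lines it was 5 after DMSO (5 to 6 without each library) and 4 after the combination (4 to 5), and for the SK-LMS-1 combination and the DMSO sets it stayed at 0 in all alternatives run. After MK-0752, 4 of the 9 genes passed the fold threshold of 1 on the log2 scale, and 3 to 5 did without each library.

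Libraries with the same second number in DMSO set 4 and the combination of SK-LMS-1 did not deviate together (r = 0.002 over 13522 genes), so the numbers give no pairing. A replicate block left the count of called genes at 0 in the SK-LMS-1 combination, where the log2FC of ANGPTL4 was 0.78, and at 0 in the difference between the lines.

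Low counts limit PDK4 and PPARG in SK-UT-1B, where 1 DMSO library had 0 counts and the other 45 and 20, and SLC25A20 in DMSO set 2, with 22 and 26 counts. Without 1 library, a lone library is assumed to vary like the other groups and 24346 to 24756 genes passed the filter in place of 21114, so a call gained there is no sign of a firmer result. The causes of these shifts were not tested.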
